A study of Triticum aestivum and Triticum urartu and Aegilops speltoides with 12 samples.

Results

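The 2BS.2RL line is a hexaploid wheat in which the short arm of wheat chromosome 2B is joined to the long arm of rye chromosome 2R. Its seedling transcripts were compared with those of hexaploid wheat on 4 of the 12 arrays of the series, 2 labelled translocation and 2 labelled wheat, chosen by their titles alone. Both lines are labelled Triticum aestivum. The other 8 arrays held 4 diploids, 2 arrays each, and were used to describe the features that differed: Triticum urartu (A genome), Aegilops speltoides (B genome), Aegilops tauschii (D genome) and rye, Secale cereale. Per the labels, seedlings grew without treatment until day 10, at the third leaf stage, and leaves and roots were extracted together. Each array held the RNA of 2 seedlings and each group had 2 biological replicates. The wheat cultivar, the pedigree of the translocation line and the rye accession were not named in the labels, so differences of the translocated arm and of the rest of the genome cannot be told apart. No feature ID matched the gene table (0 of 56855), so features are named by their IDs, whose prefix was read as the species of the source sequence, and the tissue was not checked against markers.

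Bread wheat carries the related genomes A, B and D, so most of its genes exist as several similar copies called homoeologs. In a 2BS.2RL line the long arm of 2B is replaced by that of rye 2R, so the wheat B copies on that arm are absent and rye copies stand in their place, while the A and D copies remain. The rye arm 2RL has been used by breeders as a source of resistance, including resistance to Hessian fly. A 60 bp probe can bind several homoeologs and binds a diverged copy less well, so the signal of a feature sums over the copies that its probes match. In whole seedlings, fewer cells that express a transcript, less of it per cell and a copy that the probes match less well cannot be told apart.

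Values are log2 of the deposited intensities. Across features the 2 translocation arrays correlated at r = 0.988 and the 2 wheat arrays at 0.990, and arrays of different lines at 0.979 to 0.986. All 365 features called below had 2 probes. One random-sequence control feature per array served as the background, at 6.47 and 6.50 in translocation, at 6.56 and 6.50 in wheat, and at 6.95 to 7.47 on the diploid arrays. A feature was taken as on in a plant where both arrays lay at least 1 log2 above that control.

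The translocation label was examined through the 609 features that were on in rye and in none of the other diploids. Of these, 283 and 280 reached the limit on the translocation arrays, against 259 and 277 on the wheat arrays. The gap between the lines was thus smaller than the gap between the wheat arrays. The limit was highest on the first wheat array, at 7.56, against 7.47 to 7.50 on the other hexaploid arrays. Median levels of the 609 features were 7.38 and 7.40 in translocation, against 7.40 and 7.39 in wheat. Among features on in no diploid, translocation also had more above the limit (1412 and 1478 of 7568, against 1232 and 1289 in wheat). Single rye-type features, described below, were more often lower than higher in translocation. Directions below are therefore those of the arrays that carry each label. Whether the labels of the hexaploid lines were exchanged was not tested, and an exchange would turn every direction given here.

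In translocation 188 features were higher than in wheat, 0.331% of the 56855 tested, and 177 were lower, 0.311% (0.642% together). Calls needed a log2 difference of at least 1 and a limma p below 0.05 after Benjamini-Hochberg adjustment. In all 365 the arrays of the lines did not overlap, which a call nearly requires with 2 arrays per line, and the same held for 37.1% of all features (18.1% with translocation above, 19.0% with translocation below). The higher features had a median fitted difference of 2.14, with 84 under 2, 81 between 2 and 4, and 23 of at least 4. The lower features had a median fitted difference of -2.21, with 77, 80 and 20 in the same ranges. Wheat lay at or under the random control on both arrays for 66 of the 188 higher calls. Translocation did so for 48 of the 177 lower calls. Such calls have only a bound as their size. The smallest bounds were 0.432-fold among higher and 0.774-fold among lower calls, and a bound under 1 sets no minimum to the change. Of the higher features, 93 were on in translocation and not in wheat, 80 were on in both lines and 15 in neither. Of the lower features, 81 were on in wheat and not in translocation, 81 in both and 15 in neither. The total fell to 212 without translocation replicate 2 and to 221 without wheat replicate 1, and 92 higher and 84 lower features were called whichever of the 4 arrays was left out.

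**Figure D1:**
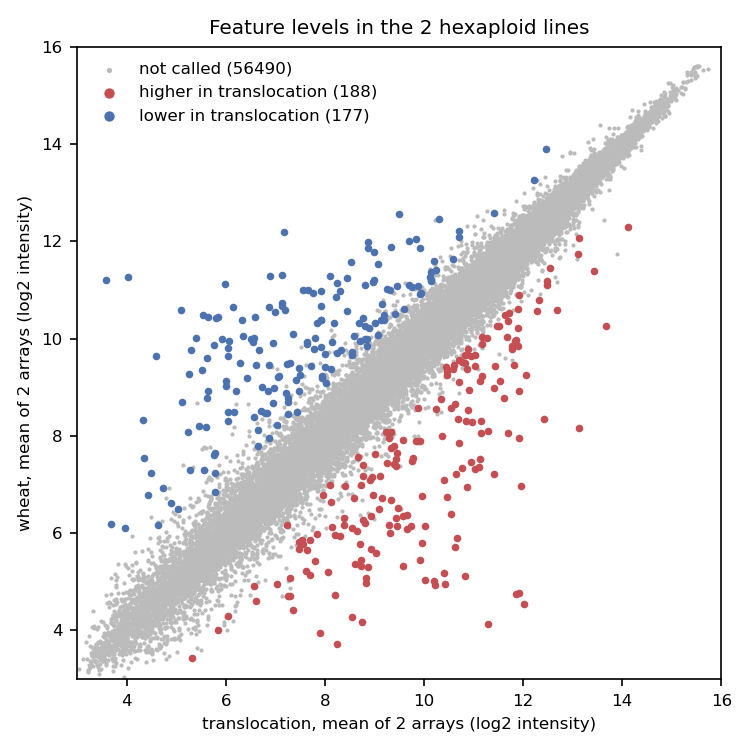
Mean log2 intensity of each feature in translocation (horizontal axis) and in wheat (vertical axis), n = 2 arrays per line. Coloured points are the 188 features called higher and the 177 called lower in translocation, and they lie on both sides of the diagonal in similar numbers.

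Ranked by fitted log2 difference, 5 of the 6 largest increases were at background in wheat and bright in translocation, so that their fitted differences have no exact size and their order is not measured. Taestivum_ESTC049215 read 11.88 and 12.16 in translocation, against 4.62 and 4.46 in wheat, a difference of 7.49 ± 0.31 (SE, limma adjusted p = 1.02e-05). Ae. speltoides alone among the diploids was bright, at 13.11 and 12.47, and the other 6 diploid arrays read between 4.94 and 6.02. Taestivum_ESTC032838 had the same shape, with 11.80 and 12.05 in translocation, against 4.45 and 5.08 in wheat, and 13.09 and 13.07 in Ae. speltoides. Taestivum_ESTC049215 and Taestivum_ESTC032838 lay within 0.5 log2 of each other (root mean square over the 12 arrays). In the grouping given below they count once, and whether they read the same transcript was not tested. Taestivum_ESTC049584 was similar, with 10.51 and 10.33 in translocation, against 5.37 and 4.53 in wheat, and 10.86 and 9.41 in Ae. speltoides. Its other diploids were less evenly dim, with 7.57 and 7.28 in Ae. tauschii and 7.54 and 5.76 in T. urartu.

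Other large increases had no bright diploid. Taestivum_ESTC017638 read 11.22 and 11.38 in translocation, against 4.20 and 4.06 in wheat, and 4.45 to 5.60 in the diploids (7.16 ± 0.30, limma adjusted p = 1.02e-05). Taestivum_ESTC035470 averaged 11.86 in translocation, against 4.75 in wheat, and at most 7.23 in a diploid. As bounds against the random control, translocation was at least 45.2-fold higher for Taestivum_ESTC049215, at least 42.2-fold for Taestivum_ESTC032838, at least 40.2-fold for Taestivum_ESTC035470, at least 27.3-fold for Taestivum_ESTC017638 and at least 14.9-fold for Taestivum_ESTC049584. Taestivum_ESTC031152, above background in both lines and on in T. urartu and Ae. speltoides, was 31.4-fold higher, with 13.13 in translocation, against 8.15 in wheat. Taestivum_ESTC037458 rested on uneven wheat arrays, with 10.71 and 10.93 in translocation, against 3.65 and 6.61 in wheat (limma adjusted p = 0.0376). Its adjusted p was 0.146 without translocation replicate 1, 0.269 without translocation replicate 2, 0.169 without wheat replicate 1 and 0.0727 with the replicate block.

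The 6 largest fitted decreases held similar kinds of feature, 5 of them at background in translocation. Taestivum_ESTC037078 read 3.46 and 3.72 in translocation, against 10.97 and 11.44 in wheat (-7.62 ± 0.25, limma adjusted p = 5.9e-06, at least 26.4-fold lower), and 3.29 to 4.21 on the 8 diploid arrays. Taestivum_ESTC035649 was also bright in wheat alone, averaging 5.98 in translocation, against 11.13 in wheat. Taestivum_ESTC032217 read 4.38 and 3.66 in translocation, against 11.31 and 11.24 in wheat, and 12.83 and 12.78 in Ae. speltoides. Ae. speltoides was also the bright diploid for Taestivum_ESTC038151, which averaged 5.10 in translocation, against 10.60 in wheat and 11.94 in Ae. speltoides. Taestivum_ESTC032471 was shared by wheat and Ae. tauschii, with 7.10 and 7.26 in translocation, against 12.07 and 12.33 in wheat, and 10.86 and 10.77 in Ae. tauschii. It was above the control in both lines, with a 32.5-fold difference. The other 5 have only lower bounds, so its size cannot be ranked against theirs. Taestivum_ESTC037079 averaged 4.60 in translocation, against 9.64 in wheat, and its adjusted p was 0.1 to 0.185 without any 1 of the hexaploid arrays. Transcripts shared with Ae. speltoides alone thus stood at both ends of the comparison.

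**Figure D2:**
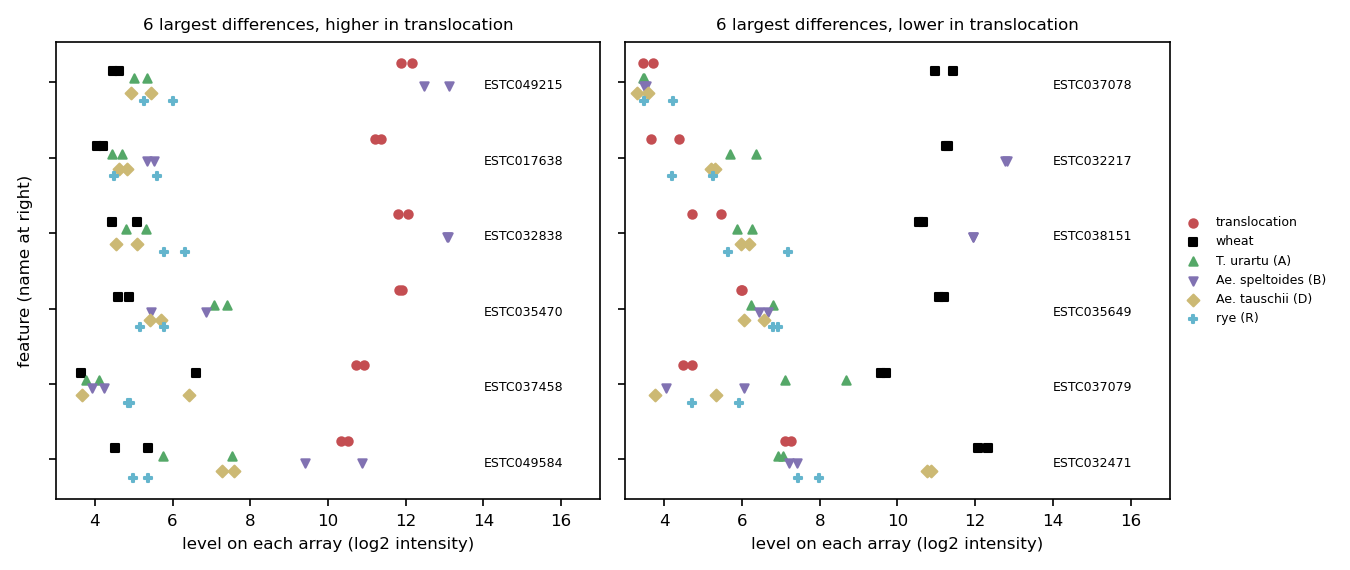
Log2 intensity on each of the 12 arrays for the 6 features with the largest fitted increase and the 6 with the largest fitted decrease in translocation, 1 symbol per array. The translocation and wheat arrays of each feature stand apart, and Ae. speltoides is bright in 3 of the increases and 2 of the decreases. Among these increases Taestivum_ESTC049215 and Taestivum_ESTC032838 are linked as near-identical.

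Each feature was then described by the diploids in which it was on, from arrays outside the difference between the lines. Most features, 39558, were on in all 4 diploids, and they gave 43 higher calls (0.109%) and 51 lower calls (0.129%), below the shares over all features. Features on in Ae. speltoides and rye only were lower most often, 21 of 271 (7.75%), with 3 higher (1.11%). Features on in rye alone were lower in 18 of 609 (2.96%) and higher in 4 (0.657%). Features on in Ae. speltoides alone were higher in 21 of 512 (4.10%) and lower in 9 (1.76%). Features on in no diploid were higher in 63 of 7568 (0.832%) and lower in 24 (0.317%). Differences between these shares were not tested. A profile follows the limit of each array and needs no gap between diploids. Taestivum_ESTC050120 counted as on in T. urartu alone with a mean of 8.15 there, against 8.09 in Ae. speltoides and 8.30 in rye. The higher background control on the diploid arrays raises the limit there, and with 1 limit for all arrays, chosen after seeing the data, 22 of 681 features on in Ae. speltoides and rye were lower (3.23%), 25 of 1024 on in rye alone were lower (2.44%) and 22 of 659 on in Ae. speltoides alone were higher (3.34%). The share for Ae. speltoides and rye thus moved by over 1.5 times with the limit, to 3.23% against 7.75%.

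**Figure D3:**
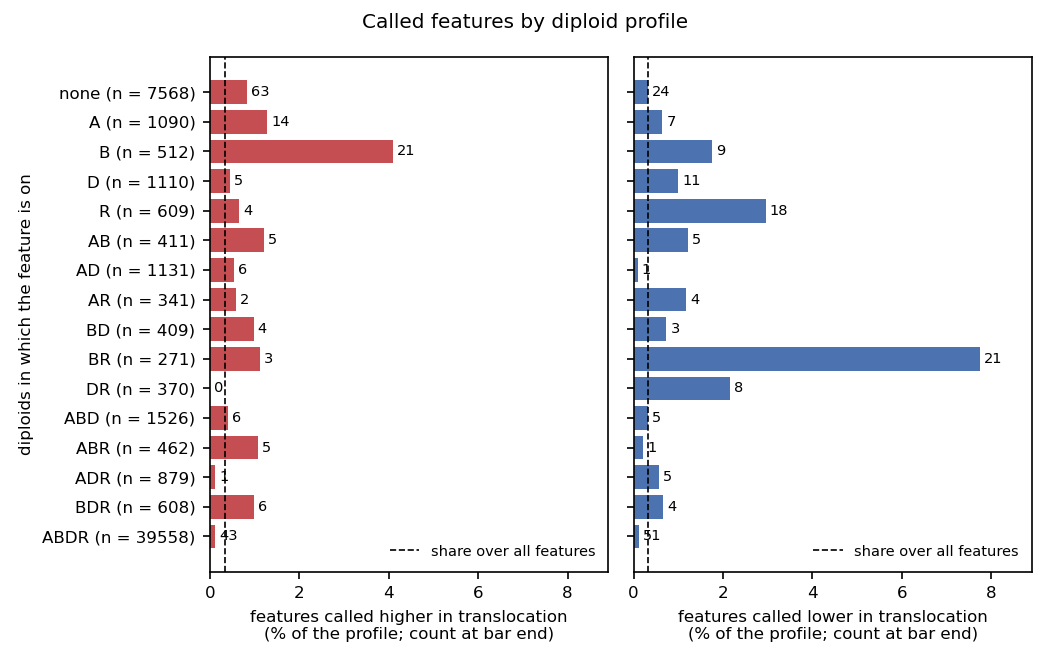
Share of the features of each diploid profile called higher and called lower in translocation, in percent, with counts beside the bars and dashed lines at the shares over all features, 0.331% and 0.311%. Letters name the diploids in which a feature was on (A T. urartu, B Ae. speltoides, D Ae. tauschii, R rye), and the largest shares are Ae. speltoides alone among higher calls and Ae. speltoides with rye among lower calls.

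The 21 lower features on in Ae. speltoides and rye had median levels of 6.58 in translocation, against 10.43 in wheat, with 9.43 in Ae. speltoides, 12.53 in rye, 6.47 in T. urartu and 6.34 in Ae. tauschii. Translocation lay within 1 log2 of T. urartu in 19 and of Ae. speltoides in 3. T. urartu was at or under the random control in 12 of the 21, so closeness to it says mainly that both were dim. Wheat lay within 1 log2 of Ae. speltoides in 15. In 17 of the 21 the transcript was not on in translocation. Translocation was called lower than rye in 21 and wheat in 19. The set was chosen with signal in rye and low translocation, which favours such calls, and their shares over all features were not counted.

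In the 2 largest of these by fitted difference, both with translocation at background, wheat levels were close to those of Ae. speltoides. Atauschii_ESTC000032 read 5.53 on both translocation arrays, against 10.51 and 10.45 in wheat, with 10.42 and 10.19 in Ae. speltoides and 13.09 and 13.07 in rye (-4.95 ± 0.20, limma adjusted p = 1.02e-05, at least 15.9-fold lower). Although its prefix was read as Ae. tauschii, it read 4.96 and 4.73 on the Ae. tauschii arrays, under the random control. Scereale_ESTC002733 read 5.72 and 5.56 in translocation, against 10.39 and 10.50 in wheat, with 10.54 and 10.23 in Ae. speltoides and 13.13 and 13.08 in rye (-4.80 ± 0.39, limma adjusted p = 0.000383, at least 15.6-fold lower). The difference of wheat from Ae. speltoides was 0.17 for the first (limma adjusted p = 0.54) and 0.06 for the second (limma adjusted p = 0.918).

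The 18 lower features on in rye alone had median levels of 6.17 in translocation, against 9.14 in wheat, with 10.94 in rye and 6.43 to 6.60 in the progenitors. None of the 18 was on in translocation, and 10 lay at or under the random control there. Translocation lay within 1 log2 of T. urartu in 14, of Ae. speltoides in 13 and of Ae. tauschii in 14. These diploids were at or under the random control in 11, 13 and 10 of the 18, so closeness to them says mainly that both were dim. Wheat was called higher than T. urartu in 18, than Ae. speltoides in 16 and than Ae. tauschii in 17, and lower than rye in 16. The set was chosen with signal in rye alone and wheat above translocation, which favours calls above the progenitors. Shares of such calls over all features were not counted. Scereale_ESTC001999 read 5.73 and 4.80 in translocation, against 9.38 and 9.18 in wheat, with 10.80 and 11.34 in rye (-4.02 ± 0.38, limma adjusted p = 0.00106, at least 6.95-fold lower). Scereale_ESTC005942 read 4.18 and 4.49 in translocation, against 8.42 and 8.22 in wheat, with 10.52 and 10.06 in rye (-3.99 ± 0.29, limma adjusted p = 0.000218), and as a bound it was at least 3.58-fold lower. The count of 18 was 10 without translocation replicate 2, without wheat replicate 1 and without wheat replicate 2.

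Over both sets the order of the plants was the same. In all 39 features the wheat arrays lay above the translocation arrays, which the calls require, and below the rye arrays. The profile was set by signal in rye, and wheat also lay below rye on all arrays in 86.5% of the 609 features on in rye alone and in 79.3% of the 271 on in Ae. speltoides and rye. Of the 39, 31 came from rye sequences. Rye sequences on in Ae. speltoides and rye were lower in 15 of 59 (25.4%), against 3 of 191 bread wheat sequences (1.57%). Rye sequences on in rye alone were lower in 16 of 231 (6.93%), against 2 of 357 bread wheat sequences (0.560%).

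The 4 features on in rye alone that were higher are named for their small number, after their values were seen. Scereale_ESTC005231 averaged 8.83 in translocation, against 5.08 in wheat, with 9.40 in rye. Scereale_ESTC003501 averaged 10.37 in translocation, 2.37 above wheat (limma adjusted p = 0.0484), with 10.09 in rye. Taestivum_ESTC001091 averaged 9.75 in translocation, against 7.50 in wheat, with 10.03 in rye. These 3 stood within 1 log2 of rye in translocation, and Scereale_ESTC004342 did not, with 10.35 in translocation, against 8.76 in wheat and 11.59 in rye. The 3 higher features on in Ae. speltoides and rye, also named after their values were seen, were Scereale_ESTC005367, Taestivum_ESTC018526 and Taestivum_ESTC039016. The largest of them, Taestivum_ESTC018526, averaged 11.11 in translocation, against 7.36 in wheat, with 8.55 in Ae. speltoides and 8.84 in rye.

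**Figure D4:**
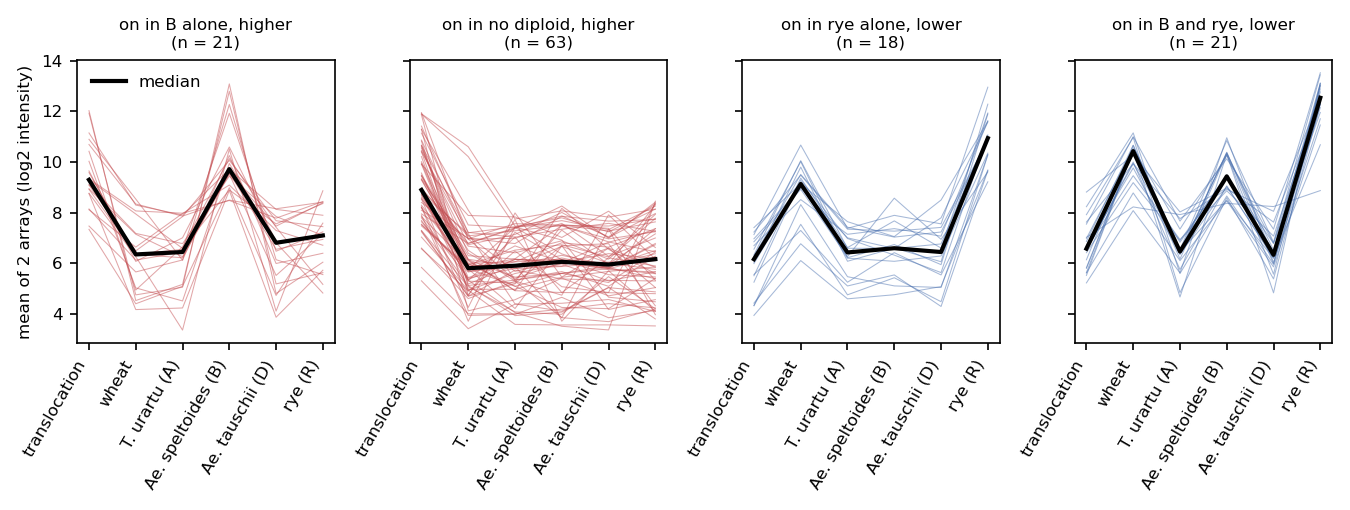
Mean log2 intensity (2 arrays) in each plant for 4 sets of called features, 1 thin line per feature with the median drawn heavier: 21 on in Ae. speltoides alone and 63 on in no diploid, both higher in translocation, then 18 on in rye alone and 21 on in Ae. speltoides and rye, both lower. In the lower sets the translocation median (6.17 and 6.58) lies near those of the diploids without signal.

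Transcripts on in Ae. speltoides alone changed in both directions. The 21 higher features had medians of 9.30 in translocation, against 6.36 in wheat, with 9.72 in Ae. speltoides and 6.45 to 7.10 in the other diploids. Translocation lay within 1 log2 of Ae. speltoides in 12 and wheat in 3, and wheat was called lower than Ae. speltoides in 18. The 9 lower features had medians of 5.63 in translocation, against 10.01 in wheat, with 10.14 in Ae. speltoides. Translocation was called lower than Ae. speltoides in 8 of these and wheat in 5. Both sets were chosen by signal in Ae. speltoides and by the lower line, which favours such calls. Their shares over all features were not counted. All 30 came from bread wheat sequences, which made up 458 of the 512 features of that profile.

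Features on in no diploid made up 63 of the higher calls at this limit. At 0 log2 above the control they were 38, against 76 on in all diploids, and without the dimmest 25% of features 1, against 44. Dimness was judged by the mean over all 12 arrays, so features on in no diploid tend to be removed by definition. The 63 had medians of 8.90 in translocation, against 5.81 in wheat, and 5.91 to 6.17 in the diploids. In 51 of them translocation lay more than 1 log2 above the highest progenitor, against 7 for wheat, and 40 were at background in wheat. As the 63 were chosen on in no diploid and higher in translocation than in wheat, this contrast of the lines follows largely from the choice. The count of 63 was 41 without wheat replicate 1. The 24 lower features had medians of 6.09 in translocation, against 8.91 in wheat, with 6.36 in Ae. speltoides and 6.74 in rye. In 2 of them translocation lay more than 1 log2 above the highest progenitor, against 18 for wheat, which the choice favours in the same way. Their count was 13 without translocation replicate 2.

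The 14 higher features on in T. urartu alone (1.28% of 1090) had medians of 9.69 in translocation, against 6.55 in wheat, with 9.27 in T. urartu. Taestivum_ESTC049682 read 9.76 and 9.69 in translocation, against 6.02 and 6.29 in wheat, with 9.30 and 9.29 in T. urartu (3.58 ± 0.27, limma adjusted p = 0.000272). It was at background in wheat, so as a bound translocation was at least 9.19-fold higher. The 7 lower features on in T. urartu alone (0.642%, against 0.311% of all features) had medians of 8.01 in translocation, against 9.09 in wheat, with 10.19 in T. urartu. Taestivum_ESTC001176 among them averaged 5.11 in translocation, against 8.70 in wheat, and its adjusted p was 0.11 without translocation replicate 1 and 0.193 without wheat replicate 1.

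The 11 lower features on in Ae. tauschii alone (0.991% of 1110) had medians of 7.18 in translocation, against 10.10 in wheat, with 10.18 in Ae. tauschii. Taestivum_ESTC037178 read 6.34 and 6.30 in translocation, against 10.16 and 10.62 in wheat, with 10.64 and 10.35 in Ae. tauschii (-4.07 ± 0.21, limma adjusted p = 2.86e-05). It was at background in translocation, so as a bound it was at least 15.0-fold lower there. The 5 higher features of that profile, a share of 0.450% near the 0.331% of all features, had medians of 9.01 in translocation, against 7.47 in wheat, with 8.68 in Ae. tauschii. Taestivum_ESTC032653, on in both T. urartu and Ae. tauschii, read 10.35 and 10.04 in translocation, against 4.82 and 5.23 in wheat, with 10.95 and 10.97 in T. urartu and 11.67 and 11.79 in Ae. tauschii (5.17 ± 0.24, limma adjusted p = 1.49e-05). Wheat was at background for Taestivum_ESTC032653, so as a bound translocation was at least 12.7-fold higher.

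Ae. tauschii and rye shared 8 lower features (2.16% of 370), with 0 higher. Their medians were 7.70 in translocation, against 9.24 in wheat, with 9.05 in Ae. tauschii and 9.76 in rye. Scereale_ESTC002200 read 8.32 and 8.28 in translocation, against 10.95 and 11.01 in wheat, with 10.02 and 9.73 in Ae. tauschii and 11.27 and 11.93 in rye (-2.68 ± 0.28, limma adjusted p = 0.00225). The remaining 8 profiles held 35 higher (0.607%) and 28 lower features (0.486%) among 5767, 1 to 6 higher and 1 to 5 lower in each.

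Features on in all 4 diploids differed by less. The 43 higher features had a median difference of 1.39, with 11.48 in translocation, against 9.80 in wheat. Taestivum_ESTC049019 read 12.29 and 12.56 in translocation, against 8.29 and 8.41 in wheat, with 8.33 to 10.89 in the diploids (4.08 ± 0.28, limma adjusted p = 0.000133). The 51 lower features had a median difference of -1.45, with 9.06 in translocation, against 10.94 in wheat. Leaving out translocation replicate 2 gave 18 higher and 17 lower, leaving out wheat replicate 1 gave 25 and 21, and leaving out wheat replicate 2 gave 32 and 23.

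Of the 51 lower features, 21 lay below every diploid array on both translocation arrays and 3 on both wheat arrays, against 14.2% in translocation and 12.7% in wheat among all 39558. The 51 were chosen with translocation below wheat, which by itself raises the first count and lowers the second, so this is a description. Taestivum_ESTC008667 read 5.52 and 6.01 in translocation, against 9.80 and 9.95 in wheat, with 11.33 to 11.83 on the diploid arrays (-4.11 ± 0.20, limma adjusted p = 1.6e-05). Taestivum_ESTC017328 read 5.77 and 5.45 in translocation, against 9.60 and 9.62 in wheat, with 10.87 to 11.74 on the diploid arrays (-4.00 ± 0.19, limma adjusted p = 1.53e-05). Both were at background in translocation, and wheat too was called below the progenitor mean, by -1.74 for Taestivum_ESTC008667 (limma adjusted p = 6.17e-05) and -1.77 for Taestivum_ESTC017328 (limma adjusted p = 4.3e-05).

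Set against the mean of the 3 progenitors, the higher features had a median difference of 1.86 in translocation, against -0.47 in wheat, and the lower features -0.65 in translocation, against 1.61 in wheat. Translocation lay more than 1 log2 above the highest progenitor in 82 of the 188 higher features, and wheat in 65 of the 177 lower ones. These levels share the hexaploid arrays with the calls and are a description. A comparison that shares no array fitted the 4 hexaploid and the 8 diploid arrays apart, and it called 231 features higher (0.406%) and 200 lower (0.352%) in translocation. Of the 200 lower features, 86 (43.0%) were called higher in rye than in the progenitor mean, and of the 231 higher features 36 (15.6%), where 7.16% of all features were so called. Lower in rye were 21 of the lower features (10.5%) and 52 of the higher ones (22.5%), where 9.95% of all features were so called.

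Called features were linked where their profiles lay within 0.5 log2 of each other (root mean square over the 12 arrays), and chains of such links formed groups, whose farthest members differed by up to 0.982 log2 on that measure. Counted once each, the 188 higher features formed 143 groups and the 177 lower ones 150. The 21 lower features on in Ae. speltoides and rye formed 13. The largest such group held Asquarrosa_ESTC000031, Scereale_ESTC002664, Scereale_ESTC002731, Scereale_ESTC002733 and Tmonococcum_ESTC003234, with means of 5.64 to 6.87 in translocation, against 10.43 to 10.66 in wheat and 13.00 to 13.44 in rye. The next held Scereale_ESTC004621, Scereale_ESTC005162, Scereale_ESTC005270 and Scereale_ESTC005535, with 6.43 to 6.66 in translocation, against 9.19 to 9.93 in wheat and 11.95 to 12.53 in rye. Members of both groups were named after their values were seen, and whether a group reads 1 transcript was not tested. The largest group of higher features had 8 members, all on in the 4 diploids, with 10.44 to 11.03 in translocation, against 9.26 to 9.67 in wheat.

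Close to the threshold, Taestivum_ESTC028511 averaged 10.44 in translocation, against 9.43 in wheat (1.01 ± 0.18, limma adjusted p = 0.0425), and Scereale_ESTC001639 averaged 9.93 in translocation, against 10.93 in wheat (SE 0.17, limma adjusted p = 0.0406). The adjusted p of both exceeded 0.05 without any 1 of the hexaploid arrays (0.0623 to 0.304) and with the replicate block (0.0641 and 0.0584). Just outside, 29 features passed the adjusted p with a difference under 1, of which 11 were higher and 18 lower. A further 642 differed by at least 1 without passing it, 338 higher and 304 lower.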

How the data were processed

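The authors deposited 1 linear intensity per feature and array, for which the submitters' processing notes name RMA; log2 of these deposited values was analysed. A file of 12 further value columns, headed by codes that match no label, was used only to count probes. The 8 control features were left out, and no feature ID matched the gene table. limma 3.58.1 in R 4.3.3 fitted 6 group means over 12 arrays (6 residual and 2.972 prior degrees of freedom), with Benjamini-Hochberg adjustment over 56855 features. In data simulated with independent normal noise of the fit's own spread, 77 of 100 changes of log2 1.5 and 97 of 100 of log2 3 were recovered, with 8 false among 182 calls. The real arrays need not meet that setting, so these counts do not give the false share of the real calls. A feature at or under the random control on both arrays of a line has only a bound as its fold. Named features were the 6 largest changes in each direction, the 2 largest in each profile with at least 5 calls in a direction and the call closest to the threshold. The comparison, profiles and lists were chosen with earlier results of these data known. With 2 arrays per group, their number limits the precision.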

Additional observations from a re-analysis of the deposited data

Results flagged for a closer look

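Of the 7 sGFP control features, which no comparison used, 4 lay above the random control (88.4 to 94.2) on all 4 hexaploid arrays and 3 did not. As geometric mean intensities, sGFP_Barcds000001 read 2167 in translocation and 2125 in wheat, sGFP_Barcds000002 read 216 in translocation and 224 in wheat, sGFP_Barcds000003 read 439 in translocation and 468 in wheat, and sGFP_Barcds000004 read 473 in translocation and 498 in wheat. The other 3 averaged 97.0 in translocation and 96.9 in wheat (sGFP_Barcds000005), 75.6 in translocation and 77.3 in wheat (sGFP_Barcds000006), and 10.7 in both (sGFP_Barcds000007).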

How the results depend on the processing

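Rescaling to a common median, quantile normalization, cyclic loess, scaling to the random control and an intensity trend gave 345 to 367 calls, against 365. Among the named features 0 comparisons reversed and 50, in 12 features, lost the call. Named features that a filter on the features removed were not compared under that filter and are in neither count. The replicate numbers are not stated to pair the samples: the replicate block gave 366 calls, 189 higher and 177 lower, and the deviations of same-numbered translocation and wheat arrays correlated at 0.198. Of the 366 calls with the replicate block, 330 were among the 365. Of the 431 calls of the fit on the 4 hexaploid arrays, 322 were among them. The fit on the 4 hexaploid arrays gave 37 lower features on in no diploid. Without the dimmest 25% of features 66 higher, 74 lower and 140 in all were called. They held 1 higher and 1 lower on in Ae. speltoides alone, 6 lower on in Ae. speltoides and rye, 1 lower on in rye alone, and 1 higher and 0 lower on in no diploid. Dimness was judged by the mean over all 12 arrays, so features on in few or no diploids tend to be removed by definition. Their lower counts under this filter therefore cannot show how firm those calls are. Higher features with translocation within 1 log2 of the highest progenitor were 42 under it, and lower ones with wheat within 1 log2 of the highest progenitor 47, against 83 and 85. A log2 minimum of 2 gave 104 higher, 100 lower and 204 in all, with 9 higher and 15 lower on in all diploids, and 29 and 39 within 1 log2 of the highest progenitor. With on set at 0 log2 above the random control, 76 higher and 80 lower were on in all diploids, 12 higher in Ae. speltoides alone, and 38 higher and 14 lower in none. At 2 log2 above it, 24 higher and 28 lower were on in all diploids, 34 lower in rye alone and 44 lower in none. Features linked as near-identical and counted once left 27 higher on in all diploids and 13 lower on in Ae. speltoides and rye. Leaving out 1 hexaploid array gave 114 to 174 higher, 94 to 148 lower and 212 to 322 in all. The ranges were 18 to 32 higher and 17 to 47 lower for features on in all diploids, 10 to 14 lower for rye alone, 41 to 81 higher and 13 to 28 lower for none, and 44 to 98 and 39 to 70 within 1 log2 of the highest progenitor. The cause was not tested. A control feature per array sets the background, so dim levels have no finer limit.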
